A study of Mus musculus with 2 samples.

Results

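Immature neutrophils carrying transcripts of secondary granule proteins were studied among live CD45+ cells sorted from mouse liver tumors and profiled with droplet-based 3′ single-cell RNA sequencing, in which unique molecular identifiers (UMIs) count each captured RNA molecule once. The cells were chosen from their measured values: a cell had to give at least 0.5% of its UMIs to S100a8 and S100a9, the calprotectin genes abundant in neutrophils, and at least 1% to Camp, Ngp and Ltf, with at most 1 UMI of Cd3d, Cd3e and Cd3g (T cell receptor complex) and 0 UMIs of Cd79a (B cell receptor complex). Of the 25814 cells with at most 6000 genes and at most 25% mitochondrial UMIs in both libraries, 467 met these limits, or 1.81%. There were 2 libraries, 1 per condition, both from the lenvatinib-resistant Trp53KO/MYCOE model: male wild-type C57BL/6J mice aged 6 to 8 weeks received plasmids for a guide against p53, for MYC and for the sleeping beauty transposase by hydrodynamic tail vein injection, which drives tumors from hepatocytes that take up the DNA. All mice were given lenvatinib, an inhibitor of several receptor tyrosine kinases, at 30 mg/kg from day 12 for 25 days, and then either lenvatinib at 30 mg/kg (lenvatinib group) or lenvatinib at 30 mg/kg with palbociclib at 100 mg/kg (combo group). Palbociclib inhibits the cyclin-dependent kinases CDK4 and CDK6. The sources used here do not give the number of mice behind a library, so each condition is 1 sample. Conditions were therefore compared without a test, and treatment, animals and batch cannot be told apart.

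Neutrophils are made in the bone marrow in steps that can be read from their granules. Promyelocytes fill primary granules with myeloperoxidase and serine proteases such as elastase, myelocytes and metamyelocytes then make secondary granules holding lactoferrin (Ltf), cathelicidin (Camp), neutrophilic granule protein (Ngp) and lipocalin 2, and band cells add gelatinase granules. Cell division stops at the step from myelocyte to metamyelocyte, and the transcripts of granule proteins fade as cells mature, so blood and tissue neutrophils carry the proteins with little of their RNA. C/EBPε, encoded by Cebpe, is the transcription factor required for secondary granules, and PU.1, encoded by Spi1, acts across the myeloid lineage.

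Camp, Ngp and Ltf lie on mouse chromosome 9 within 1195 kb of each other, at chr9:109847379-109849617 (Camp, minus strand), chr9:110419747-110423012 (Ngp, plus strand) and chr9:111019271-111042767 (Ltf, plus strand) in mm10 by the GENCODE annotation. Lcn2, which encodes lipocalin 2 and was not used to choose the cells, is at chr2:32384633-32388252 on the minus strand. Their promoters, from 250 bases before to 50 bases after the RefSeq start in GRCm38.p6, are shown because 3 of these genes define the cells and Lcn2 is the secondary granule gene with the highest level among those not used to choose them. Capitals mark matches on either strand to a C/EBP motif (TTNNGNAA) or to a PU.1 core (GAGGAA), 2 motifs that did not overlap in these windows.

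Camp: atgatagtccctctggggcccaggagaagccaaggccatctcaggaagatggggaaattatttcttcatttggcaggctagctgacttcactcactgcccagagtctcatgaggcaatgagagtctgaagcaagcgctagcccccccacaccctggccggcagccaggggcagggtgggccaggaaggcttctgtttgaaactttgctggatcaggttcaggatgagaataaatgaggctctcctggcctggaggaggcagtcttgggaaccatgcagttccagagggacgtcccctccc
Ngp: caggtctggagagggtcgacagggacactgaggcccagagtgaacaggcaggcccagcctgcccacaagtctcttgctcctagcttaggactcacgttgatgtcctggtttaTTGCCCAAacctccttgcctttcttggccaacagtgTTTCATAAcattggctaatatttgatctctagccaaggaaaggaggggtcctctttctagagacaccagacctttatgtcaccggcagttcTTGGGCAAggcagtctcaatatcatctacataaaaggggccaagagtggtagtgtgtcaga
Ltf: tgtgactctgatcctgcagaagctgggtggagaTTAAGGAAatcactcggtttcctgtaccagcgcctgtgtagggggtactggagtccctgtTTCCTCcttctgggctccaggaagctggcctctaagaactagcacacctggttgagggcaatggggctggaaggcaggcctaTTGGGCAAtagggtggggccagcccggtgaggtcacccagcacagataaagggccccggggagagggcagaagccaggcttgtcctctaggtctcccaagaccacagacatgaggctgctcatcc
Lcn2: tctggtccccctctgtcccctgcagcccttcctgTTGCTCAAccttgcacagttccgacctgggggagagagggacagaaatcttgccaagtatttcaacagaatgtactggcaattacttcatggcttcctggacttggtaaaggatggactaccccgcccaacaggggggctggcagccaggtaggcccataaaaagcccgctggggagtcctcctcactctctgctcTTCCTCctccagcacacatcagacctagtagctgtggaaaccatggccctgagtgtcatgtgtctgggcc

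These windows lie at chr9:109849407-109849706 (Camp, minus strand), chr9:110419558-110419857 (Ngp), chr9:111019042-111019341 (Ltf) and chr2:32387690-32387989 (Lcn2, minus strand). The Ngp window held 3 C/EBP matches, the Ltf window 2 and the Lcn2 window 1, and the Camp window held neither motif. The same 8 bases, TTGGGCAA, occurred in the Ngp window on the plus strand and again as the reverse complement TTGCCCAA, and once in the Ltf window. Of 32851 mouse promoters of the same length, 40.7% held a C/EBP match, 28.3% held a PU.1 core and 0.828% held TTGGGCAA, chosen after the windows were seen, on either strand. A match describes letters and does not show that a factor binds.

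The immature neutrophils were 98 of 14201 cells in the lenvatinib library and 369 of 11613 cells in the combo library. This was 0.690% (95% interval 0.561 to 0.840) under lenvatinib and 3.18% (2.87 to 3.51) under combo, a ratio of 4.60 (3.41 to 6.27, from the outer bounds of both shares). The intervals of shares here are exact Clopper-Pearson intervals, those of summed counts are exact Poisson intervals, and both cover counting error only. The other neutrophils were gated on S100a8 and S100a9 with less than 1% Camp, Ngp and Ltf, at least 1 UMI of Csf3r (the G-CSF receptor) and at most 1 UMI of the monocyte and macrophage genes Csf1r, Ccr2, Fn1 and C1qa, and made up 4.01% (569 cells) and 10.1% (1169 cells), a ratio of 2.51 (2.19 to 2.88). The immature cells were therefore a larger part of all gated neutrophils under combo, 24.0% (21.9 to 26.2) against 14.7% (12.1 to 17.6), a ratio of 1.63 (1.24 to 2.17). That ratio was 1.18 (0.909 to 1.55) when other neutrophils were taken at 5% or more of S100a8 and S100a9 without limits on Csf3r or monocyte genes, so the larger share within neutrophils depended on how the other neutrophils were gated. Among the other neutrophils, those without a UMI of Ptgs2, the prostaglandin synthase of activated neutrophils, had a ratio of 4.13 (3.21 to 5.35) as a share of all cells and those with one a ratio of 1.97 (1.67 to 2.33). The neutrophil class with Ptgs2 thus had the lowest ratio of the 3 classes, and the intervals of the immature and the Ptgs2-negative class overlapped.

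**Figure D1:**
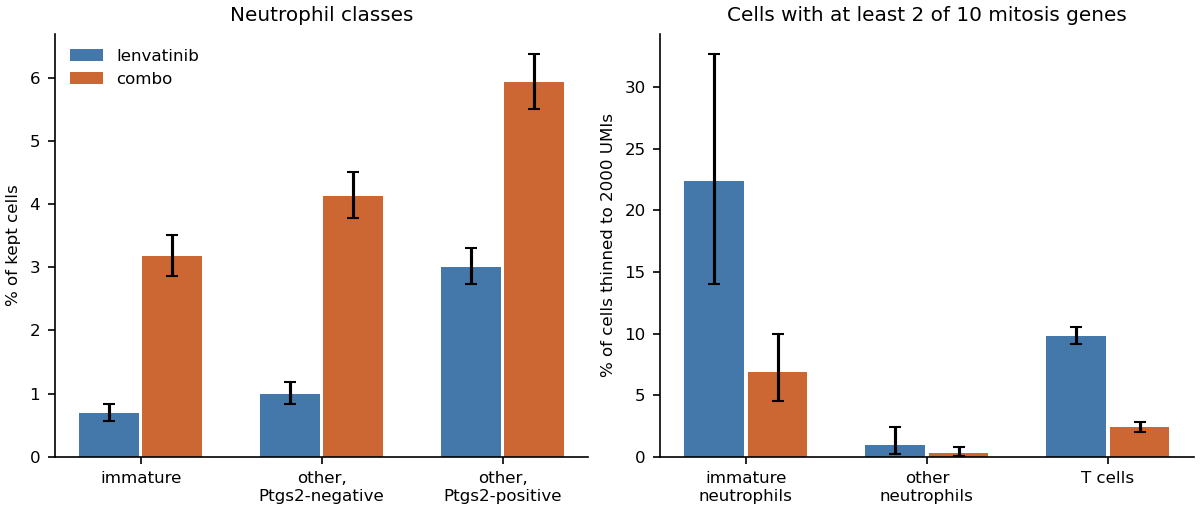
Left, immature neutrophils, other neutrophils without Ptgs2 and other neutrophils with Ptgs2 as a percentage of kept cells in each library; right, immature neutrophils, other neutrophils and T cells with at least 2 of 10 mitosis genes after each cell was thinned to 2000 UMIs. Bars are 1 library each and error bars are exact 95% intervals of counting error. Immature neutrophils were 0.690% under lenvatinib and 3.18% under combo, and 22.4% and 6.89% of them met the mitosis limit.

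The libraries held 14509 and 11989 barcodes with 98107503 and 93583402 UMIs, a median of 5471 and 5641 per barcode, and 308 and 376 barcodes were removed by the limits on genes and mitochondrial UMIs. The 2 libraries had 49 barcode strings in common. Density centrifugation, red cell lysis and the CD45+ sort came before the count of cells, and shares of cells depend on what they let through.

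The label was checked against genes that the choice did not use. After thinning each cell to 2000 UMIs, all 85 lenvatinib and all 363 combo cells had a UMI of Lcn2, against 3.17% and 22.5% of T cells (at least 2 Cd3 UMIs), which should lack it, and 51.8% and 81.6% of the other neutrophils. Chil3, a chitinase-like protein of myelocytes, was found in 90.6% and 87.3% of the thinned cells (1.11% and 9.24% of T cells), and Cebpe in 47.1% and 30.3% (0.0569% and 0.151%). Csf3r, which most mature neutrophils carry, was found in 20% and 19.3%, against 94.1% and 88.9% of the other neutrophils, whose gate required it. Without thinning, 50% and 76.7% of the immature cells had a UMI of Csf3r. Retnlg, a gene of mature neutrophils, went the other way, in 67.1% and 94.2% of the thinned immature cells against 50.1% and 83.0% of the other neutrophils. Of all UMIs of a gene in the kept cells of a library, these few cells held 65.2% and 64.0% for Cebpe, 64.2% and 55.1% for Lcn2, 62.1% and 31.0% for Chil3 and 35.8% and 33.4% for Mmp8. The immature cells were also the deeper ones, with a median of 8669 UMIs under lenvatinib and 15692 under combo, against 2491 and 4254 in other neutrophils. The T cell UMIs are a measure of free RNA, and they differed between the libraries: the 5 genes of the choice made up 266 CPM (UMIs per 1000000 UMIs of the class) in T cells under lenvatinib and 1496 under combo. The T cells were taken below 0.5% S100a8 and S100a9, so they hold no cell of the immature class by construction, and their highest share of Camp, Ngp and Ltf was 0.246% and 0.229%.

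**Figure D2:**
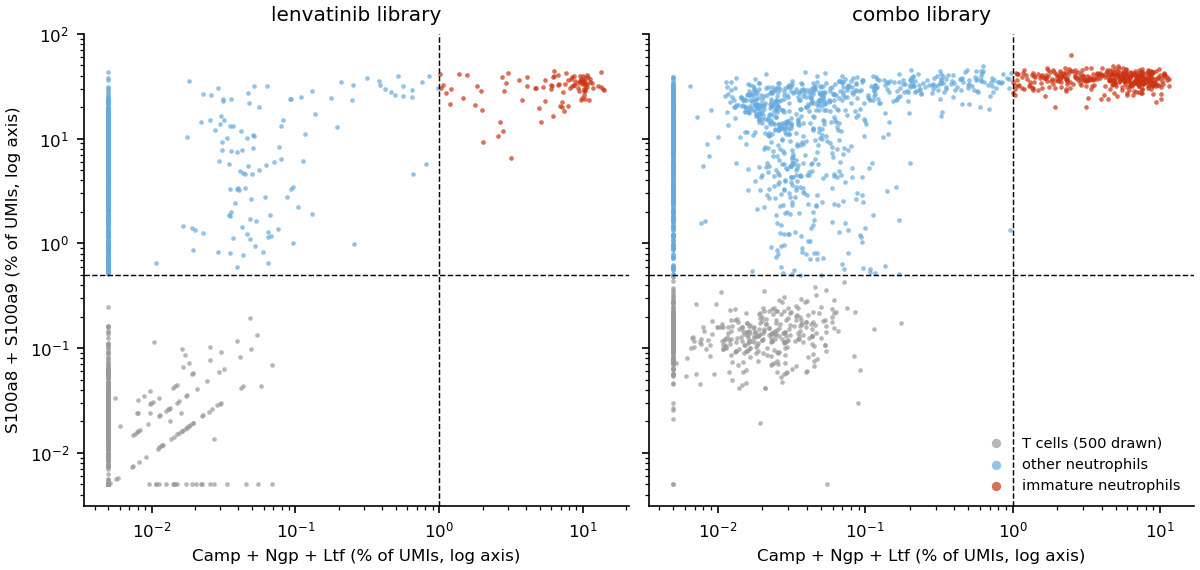
Share of each cell's UMIs from Camp, Ngp and Ltf (x) and from S100a8 and S100a9 (y), both on log axes with values under 0.005% drawn at 0.005%; dashed lines are the limits of 1% and 0.5%. Each point is a cell, with 500 T cells drawn per library. Every immature neutrophil lay at or above 6.52% S100a8 and S100a9 under lenvatinib and 19.9% under combo, far above the 0.5% limit, and they formed the end of a band that continued from the other neutrophils.

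The genes of the choice are given as a description. S100a8 and S100a9 together took a median of 31.98% of the UMIs of a cell under lenvatinib (lowest 6.52%, highest 44.0%) and 37.3% under combo (19.9% to 62.6%). Camp, Ngp and Ltf took 7.58% (1.01% to 14.0%) and 5.25% (1.002% to 11.5%). Camp alone was at a median of 3.76% and 1.69%, Ngp at 2.87% and 2.63% and Ltf at 0.795% and 0.771%. The lower sum under combo was thus a difference in Camp, while Ngp and Ltf were close. Near the limit, 3 lenvatinib and 11 combo cells held 1 to 1.1% and 2 and 8 cells that met the other limits held 0.9 to 1%. A further 20 lenvatinib and 109 combo cells met both granule limits and were left out by the limits on Cd3 and Cd79a, and because those limits count UMIs, they bear harder on deep cells: the cells left out had medians of 13856.5 and 20967 UMIs. Among the cells kept, 30 and 131 had 1 Cd3 UMI, the T cell markers summed to 81.5 and 55.6 CPM (3540 and 4104 in T cells), and Scrublet called 1 of 98 and 7 of 369 doublets, which were kept.

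The cells were divided by fixed shares of the 3 granule genes. In 13, 16, 44 and 25 lenvatinib cells, Camp, Ngp and Ltf made up 1 to 2%, 2 to 5%, 5 to 10% and over 10% of UMIs, and in the combo library these ranges held 56, 120, 179 and 14 cells. The top range thus held 25.5% of the cells under lenvatinib and 3.79% under combo. Genes differed in how they ran across these ranges. Cebpe was at 27.9, 315, 367 and 465 CPM from the lowest to the highest range under lenvatinib and at 52.2, 147, 280 and 460 CPM under combo. Chil3 was at 307, 2248, 5477 and 8104 CPM and at 767, 2427, 6225 and 7953 CPM. Cebpe and Chil3 were therefore higher where the 3 granule genes were higher, and in the top range the intervals of the libraries overlapped for both genes. Elane, the elastase of promyelocytes, did not follow them, at 14.0, 1751, 389 and 94.7 CPM under lenvatinib and at 0, 100.2, 37.4 and 0 CPM under combo, from few cells.

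Retnlg, which encodes a resistin-like protein of mature neutrophils, went the other way, from 25385 to 886 CPM under lenvatinib and from 24937 to 1884 CPM under combo. Mmp8, neutrophil collagenase, counted among secondary granule genes, also went down, from 3227 to 139 CPM and from 2445 to 160 CPM. Cxcr2, the chemokine receptor through which neutrophils leave the marrow, was at 433 and 22.3 CPM in the lowest and highest range under lenvatinib and at 368 and 95.1 CPM under combo. The fraction of cells with at least 1 UMI of Cxcr2 or Il1b after thinning was 30.6% (21.0 to 41.5) under lenvatinib and 48.2% (43.0 to 53.5) under combo (53.1% and 94.3% without thinning).

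**Figure D3:**
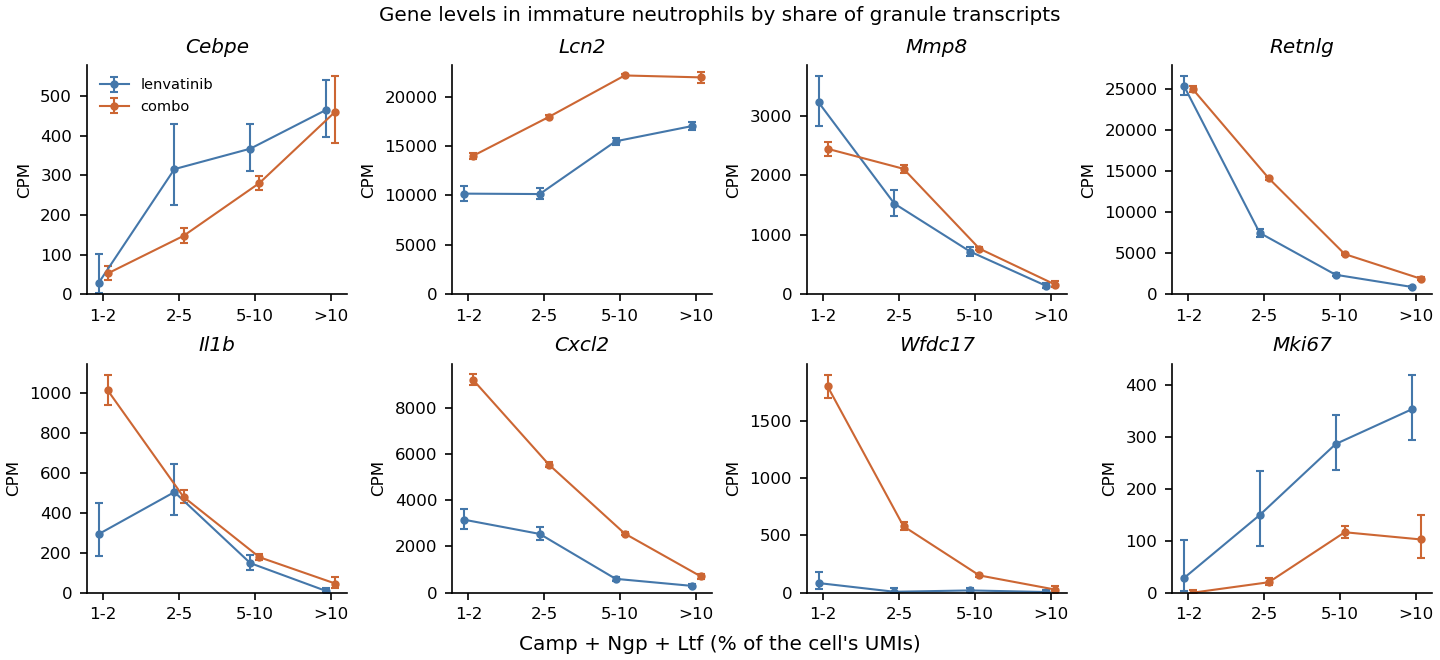
Levels of 8 genes (CPM of summed UMIs) in immature neutrophils by the share of their UMIs from Camp, Ngp and Ltf, with exact Poisson 95% intervals. Cebpe and Lcn2 were higher over 5% than under 2% in both libraries, and Mmp8, Retnlg, Cxcl2 and Il1b were lower. Wfdc17 was at 1798 CPM in the lowest range under combo and 83.8 CPM under lenvatinib.

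Dividing cells were found among the immature neutrophils and hardly elsewhere in the lineage. A cell was counted when UMIs of at least 2 of 10 mitosis genes were left after thinning to 2000 UMIs, which left out 13 lenvatinib and 6 combo cells. Under lenvatinib 19 of 85 cells met this limit (22.4%, 14.0 to 32.7) and under combo 25 of 363 did (6.89%, 4.51 to 10.0), a ratio of 0.308 (0.138 to 0.713). Without thinning the shares were 25.5% and 13.8%, closer to each other, and the combo cells were the deeper ones. In other neutrophils the share was 0.937% and 0.273%, and in T cells 9.83% and 2.38%, lower under combo as well. Mitosis genes lay in the cells with most granule transcripts: 0 of 10, 1 of 12, 10 of 38 and 9 of 25 lenvatinib cells and 0 of 54, 3 of 119, 22 of 176 and 3 of 14 combo cells met the limit from the lowest to the highest range. Within the range of 5 to 10%, the shares were 26.3% (13.4 to 43.1) and 12.5% (8.002 to 18.3), a ratio of 0.475 (0.186 to 1.37), and the intervals overlapped.

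To compare levels between the libraries, UMIs were summed over the immature cells of each library (968851 UMIs under lenvatinib and 6295056 under combo) and given as CPM. Genes were described when they had at least 50 CPM in 1 library and 10 UMIs in each, 2095 genes in all. Of these, 51 were at least 2-fold higher under combo (2.43%) and 261 were at 0.5-fold or less (12.5%). The median ratio of combo to lenvatinib over all described genes was 0.801, or -0.32 on the log2 scale (0.935 over the 522 genes with at least 200 CPM in 1 library), so a list with a median ratio near 0.801 lay with the bulk of genes.

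Of the genes of primary granules and early precursors, all 5 described genes of 9 in this list were at 0.5-fold or less, where 12.5% of all described genes were. Their median ratio was 0.209 beside the 0.801 of all genes. Elane, neutrophil elastase, was at 430 CPM (390 to 474) under lenvatinib and 50.04 CPM (44.7 to 55.9) under combo, a ratio of 0.116. Prtn3, proteinase 3, whose gene lies beside Elane on chromosome 10 (chr10:79874476-79883174 and chr10:79886247-79888215), was at 426 and 89.0 CPM, a ratio of 0.209. These sums rested on few cells: Elane UMIs came from 14 lenvatinib and 16 combo cells, and 1 cell gave 42.7% of them under lenvatinib and another 51.7% under combo. Mpo, myeloperoxidase, was at 81.5 and 13.2 CPM with 87.3% of the lenvatinib UMIs from 1 cell, and without the top cell of each library its ratio was 0.530 in place of 0.162. The ratios also moved with the limit on Camp, Ngp and Ltf. At 0.5% in place of 1% they were 0.0436 for Elane, 0.0752 for Prtn3 and 0.0204 for Mpo. Fcnb (ficolin B) and Ms4a3, a tetraspan protein of granulocyte precursors, were more widely spread, at 638 and 257 CPM in 39 and 103 cells (ratio 0.403) and at 161 and 38.3 CPM in 25 and 47 cells (ratio 0.238). Cells with a UMI of Mpo, Elane, Prtn3 or Ctsg after thinning were 14.1% (7.51 to 23.4) under lenvatinib and 4.41% (2.54 to 7.06) under combo, but 22.4% and 22.2% without thinning. Within the range of 5 to 10% granule transcripts, the ratio was 0.0961 for Elane and 0.478 for Ms4a3, and Prtn3 (0.542) and Mpo (0.587, 0.221 to 1.96) were no longer at 0.5-fold or less. Only 2 lenvatinib cells and 1 combo cell gave 0.5% or more of their UMIs to these 4 genes.

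Secondary granule genes that the choice did not use stayed closer together. All 10 were described, 2 were at least 2-fold higher under combo (2.43% of all described genes), none was at 0.5-fold or less, and their median ratio was 1.20. Lcn2 was at 14962 CPM under lenvatinib and 20028 CPM under combo, a ratio of 1.34 (1.32 to 1.36). The 2 past 2-fold were Olfm4 (olfactomedin 4, found only in a subset of neutrophils), at 436 and 1005 CPM, and Ceacam10, at 117 and 272 CPM. Olfm4 came from 8 lenvatinib cells and 106 combo cells. Cybb, the membrane subunit of the NADPH oxidase that makes superoxide, was lower under combo at 1034 against 1968 CPM, a ratio of 0.526, whereas the other 5 oxidase genes had ratios from 0.951 to 1.26. In 7 of these 10 secondary granule genes the immature cells were at least 2-fold above the other neutrophils in both libraries, where 6.02% of 2026 genes were.

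Gelatinase granule genes had ratios above 1 in all 6 described of 7, with a median of 1.30 and none past 2-fold. Mmp9, gelatinase B, was at 913 and 1243 CPM (ratio 1.36), and Lyz2, lysozyme, at 7743 and 12088 CPM (ratio 1.56). Of the 10 genes of neutrophil identity, 3 were at least 2-fold higher under combo, where 2.43% of all described genes were, and none was lower. The 3 were Lrg1 (371 and 1075 CPM, ratio 2.90), Cxcr2 (93.9 and 220 CPM, ratio 2.35) and Retnlg (4183 and 9641 CPM, ratio 2.30). Averaging the CPM of single cells, which gives shallow cells equal weight, put Cxcr2 at 1.88 and Retnlg at 1.87, and within the range of 5 to 10% granule transcripts they were at 1.95 and 2.07. Among 19 described surface molecules of mature neutrophils, 3 were at least 2-fold higher (2.43% of all described genes) and none at 0.5-fold or less, with a median ratio of 1.25. They were Cxcr2, Fcgr4 (an activating receptor for IgG, 38.2 and 92.9 CPM) and Cd14, the co-receptor for lipopolysaccharide (115 and 384 CPM, ratio 3.35). Ly6g, the antigen by which mouse neutrophils are sorted, was at 436 and 458 CPM.

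Transcription factors were mostly within 2-fold. Of 7 early factors 3 were described, with a median ratio of 0.560 and none past 2-fold, and of the 8 late factors 5 had a ratio above 1 and 3 below, with a median of 1.16. Cebpe was at 372 CPM (334 to 412) under lenvatinib and 224 CPM (212 to 236) under combo, a ratio of 0.603, and Hmgb2, a chromatin protein of dividing cells, was at 3304 and 1850 CPM, a ratio of 0.560. Cebpb, the C/EBP factor of mature and stressed granulopoiesis, was at 447 and 1290 CPM, a ratio of 2.89 (2.62 to 3.19), and was the 1 of 8 late factors past 2-fold. Junb (ratio 1.87) and Spi1 (ratio 1.79) were below that limit, and Klf2 was at 0.829. Cebpb was higher under combo within each range of granule transcripts, at 2656 against 1285 CPM in the lowest and 628 against 304 CPM in the highest.

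**Figure D4:**
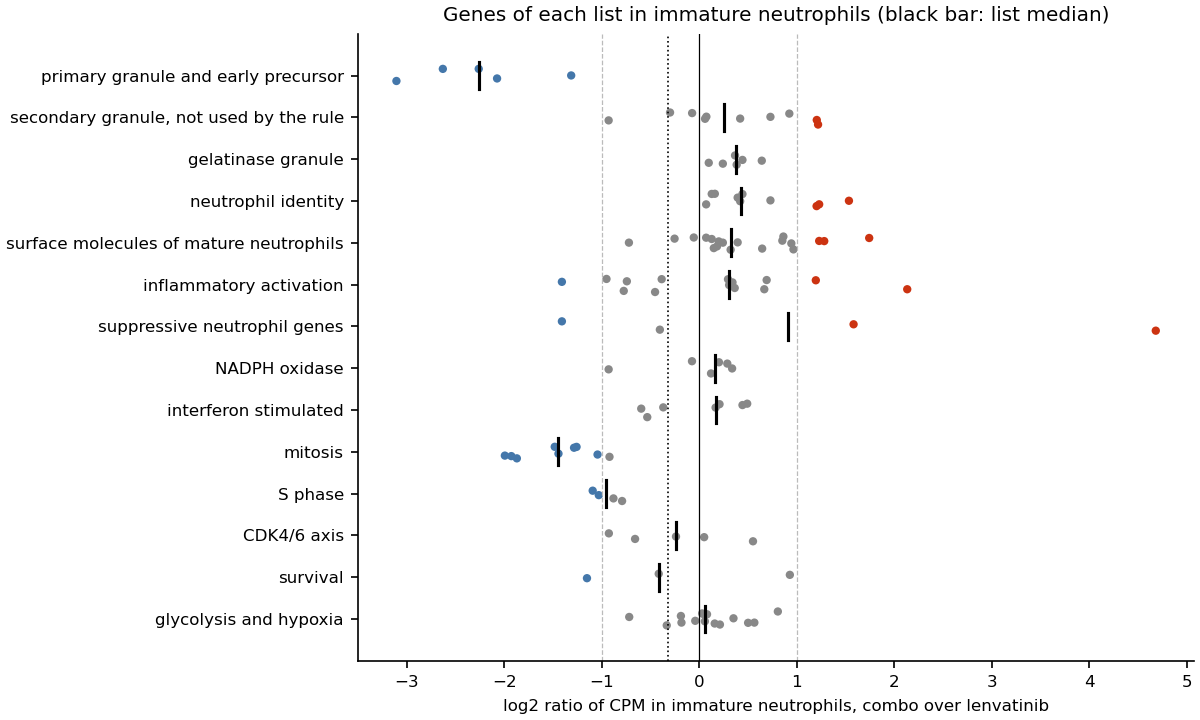
Log2 ratio of CPM, combo over lenvatinib, in immature neutrophils for the described genes of 14 lists. Each point is a gene, red at least 2-fold higher, blue at 0.5-fold or less; black bars are list medians and the dotted line is the median of all 2095 described genes. Primary granule, mitosis and S phase genes lay to the left of the dotted line and gelatinase and identity genes to the right of it.

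Inflammatory genes were uneven. Of 20 genes, 14 were described, with 2 at least 2-fold higher under combo, 1 at 0.5-fold or less and a median ratio of 1.23. Over all described genes, 2.43% were at least 2-fold higher and 12.5% at 0.5-fold or less. Cxcl2, a chemokine that draws neutrophils through CXCR2, was at 929 CPM (869 to 992) under lenvatinib and 4078 CPM (4028 to 4128) under combo, a ratio of 4.39, and it was higher under combo in every range of granule transcripts, at 9209 against 3157 CPM in the lowest and 708 against 295 CPM in the highest. Il1b, interleukin-1β, was at 154 and 352 CPM (ratio 2.29), but within the range of 5 to 10% its ratio was 1.20 (0.922 to 1.59). Ptgs2 was at 71.2 and 26.8 CPM, a ratio of 0.377, and Tnf at 54.7 and 32.7 CPM. All of these were far below the other neutrophils of the same library: 16 of 17 inflammatory genes were at 0.5-fold or less of the other neutrophils in both libraries, where 25.1% of 2026 genes were. T cells carried 0.734 and 2.40 UMIs of Cxcl2 per cell, against 9.18 and 69.6 in the immature neutrophils.

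Among the described genes the highest ratio was that of Wfdc17, a whey acidic protein family member of activated myeloid cells, at 17.5 CPM (10.2 to 28.1) under lenvatinib and 451 CPM (434 to 468) under combo, a ratio of 25.7 (16.02 to 44.2). Under lenvatinib it had 0.173 UMIs per immature cell and 0.149 per T cell, so its level there was near that of free RNA, and under combo 7.69 and 0.633. Its ratio was 7.73 within the range of 5 to 10% granule transcripts, 14.1 as a mean of single cells and 9.65 without the limits on Cd3 and Cd79a, where Cstdc4 (15.8) and Asprv1 (14.3) were among the genes above it. Other neutrophils had 2496 and 5485 CPM, a ratio of 2.20. Ifitm1, an interferon-induced membrane protein, was at 35.1 and 418 CPM (ratio 11.9, and 5.11 within the range of 5 to 10%), and Asprv1, an aspartic protease of mature neutrophils, at 54.7 and 705 CPM (ratio 12.9). Ifitm1 was not among the 15 interferon-stimulated genes listed, of which 7 were described, with ratios from 0.663 to 1.41 and a median of 1.12. Acvrl1, a receptor of the TGF-β family, was at 24.8 and 134 CPM (ratio 5.43) and, unlike the others, was higher in immature than in other neutrophils in both libraries (6.84 and 3.74 times). Upp1, uridine phosphorylase, and Fabp5, a fatty acid carrier, had ratios of 4.71 and 3.79. Fabp5 was at 0.265 UMIs per immature cell under lenvatinib, below the 0.306 of T cells.

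Beside Elane, Prtn3 and Ms4a3, the lowest ratios of genes that reached 100 CPM in either library were those of Ifi27l2a (285 and 38.9 CPM, ratio 0.137), Thbs1 (thrombospondin 1, 468 and 70.4 CPM, ratio 0.151), Gzma (130 and 20.8 CPM), Nucks1 (130 and 31.1 CPM), Hnrnph1 (171 and 45.9 CPM), Mki67 and Acsl1 (198 and 56.7 CPM). Gzma is a granzyme of NK and T cells, T cells carried 4.79 and 3.36 UMIs per cell, and 1 cell gave 39.7% of the lenvatinib and 31.3% of the combo UMIs, and the part of other cells in its values was not tested. T cells also carried more UMIs per cell than the immature neutrophils for Ifi27l2a (4.15 against 2.82 under lenvatinib), Nucks1 (1.59 against 1.29) and Hnrnph1 (2.83 against 1.69). The 7 NK cell markers together were at 314 CPM in lenvatinib and 87.8 CPM in combo immature neutrophils. Thbs1 and Ifi27l2a were also lower under combo in the other neutrophils, at ratios of 0.114 and 0.362.

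Mitosis genes were lower under combo. Of 10 mitosis genes 9 were described and 8 of them were at 0.5-fold or less, with a median ratio of 0.368. Over all described genes, 12.5% were at 0.5-fold or less. Mki67, the proliferation antigen, was at 275 CPM (243 to 310) under lenvatinib and 75.1 CPM (68.5 to 82.2) under combo, a ratio of 0.274, and Top2a, topoisomerase 2α, at 212 and 77.8 CPM, a ratio of 0.368. Ube2c, which helps trigger anaphase, was at 233 and 83.6 CPM, and Cdk1, the mitotic kinase, at 64.0 and 33.8 CPM, the 1 gene above the limit at a ratio of 0.529. Of 15 S phase genes 4 were described, and Pcna (ratio 0.469) and Pclaf (ratio 0.490) were at 0.5-fold or less, while Rrm2 (ratio 0.578) and Slbp (ratio 0.544) were not. Within the range of 5 to 10% granule transcripts, the ratio was 0.502 for Top2a, 0.775 for Ccnb2 and 0.805 for Birc5. Genes of the CDK4/6 axis, on which palbociclib acts, were mostly too low to describe: 5 of 19 passed the minimum, none was past 2-fold in either direction, and their median ratio of 0.848 was near that of all genes. Cdk4 was at 11.4 and 5.56 CPM (11 and 35 UMIs) and Cdk6 at 28.9 and 5.72 CPM (28 and 36 UMIs), both below the minimum. Ccnd3, the D-type cyclin with the highest count here, was at 291 and 302 CPM (ratio 1.04), and Cdkn2d, an inhibitor of CDK4 and CDK6, at 182 and 266 CPM (ratio 1.47).

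The cathepsin inhibitors of the stefin A cluster, a run of closely related genes on chromosome 16 (chr16:36156811-36455392), were the furthest apart. Of 10 names listed, 7 were in the files and 2 passed the minimum. Stfa1, Stfa2 and Cstdc5 had 0 UMIs among 968851 in the lenvatinib immature cells and 8344, 4066 and 11305 UMIs under combo (1325, 646 and 1796 CPM). Against a floor of 3 UMIs over the lenvatinib cells, they were at least 428-fold, 209-fold and 580-fold higher under combo among the cells that met all limits. The floor treats UMIs as independent, whereas under combo most stefin UMIs lay in few cells. The lenvatinib cells left out by the limits on Cd3 and Cd79a held 60 UMIs of Stfa1, Stfa2, Stfa3 and Cstdc5, 58 of them in 1 cell. The bounds do not include those cells. Stfa3 had 1 UMI and 3630 UMIs, a ratio of 559 (100 to 22073). Cstdc4 (28.9 and 640 CPM, ratio 22.1) and Stfa2l1 (41.3 and 548 CPM, ratio 13.3) were found in 5 and 8 lenvatinib cells, with 50% and 55% of the UMIs in 1 cell. Their ratios moved with the setting, to 4.88 and 6.77 with the granule limit at 0.5%, 6.42 and 8.69 as means of single cells, 40.7 and 27.8 without the top cell of each library, and 13.7 and 80.8 within the range of 5 to 10%. The other neutrophils had the same order at higher levels, with Stfa1 at 59.8 and 3282 CPM and Cstdc5 at 73.7 and 3940 CPM. In GENCODE transcripts, 19.4% of the 50-base words of Stfa1 and 17.5% of those of Cstdc5 occurred in another of the 6 genes, and 14.7% and 16.8% of those of Stfa2 and Stfa2l1, so reads may have been divided between them. Stfa3 and Cstdc4 shared none with the other genes compared, which did not include Cstdc6 of the same cluster. Both differed between the libraries in the same direction.

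The promoters of Stfa1 and Cstdc5 are shown because these genes had the most stefin UMIs under combo. They lie at chr16:36276898-36277197 (plus strand) and chr16:36367521-36367820 (minus strand), with capitals as above.

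Stfa1: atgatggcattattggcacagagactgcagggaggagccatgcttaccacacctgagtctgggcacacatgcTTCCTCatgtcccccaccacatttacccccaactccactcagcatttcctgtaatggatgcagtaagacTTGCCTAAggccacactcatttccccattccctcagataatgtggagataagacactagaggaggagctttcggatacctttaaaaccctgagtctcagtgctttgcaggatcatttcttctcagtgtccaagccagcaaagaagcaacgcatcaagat
Cstdc5: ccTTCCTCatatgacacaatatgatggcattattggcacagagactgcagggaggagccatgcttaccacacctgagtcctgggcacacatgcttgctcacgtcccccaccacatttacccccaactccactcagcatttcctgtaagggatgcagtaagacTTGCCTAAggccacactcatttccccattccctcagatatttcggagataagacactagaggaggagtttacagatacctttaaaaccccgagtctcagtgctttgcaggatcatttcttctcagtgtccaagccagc

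Aligned over their whole length, both windows had 83.8% identical positions, and the 6 pairs among Stfa1, Stfa2, Stfa3 and Cstdc5 had 72.1% to 83.8%. The C/EBP match TTGCCTAA occurred in both, and 1 PU.1 core in each at a different place. Of all mouse promoters 11.8% held both motifs.

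The combo immature cells varied widely in stefin UMIs. Summed over Stfa1, Stfa2, Stfa3 and Cstdc5, 96 of 369 cells (26.0%) had 0 UMIs, 181 had at most 2, and 125 (33.9%) had 20 or more, up to 1323 in 1 cell. The 37 cells with most held 70.7% of all these UMIs. Under lenvatinib 97 of 98 cells had 0 and the highest had 1. T cells of the combo library had on average 0.0921 UMIs of Stfa1 and 0.106 of Cstdc5, far under 20. Cells with 20 or more were 46.4%, 40.0%, 27.9% and 7.14% of the ranges from low to high granule transcripts. Set against the 181 cells with at most 2 stefin UMIs, the 125 with 20 or more had a like depth (median 16356 against 14826 UMIs). Their median share of Camp, Ngp and Ltf was lower, 4.20% against 5.65%, and few other genes were past 2-fold. Of 1628 genes with at least 50 CPM in 1 of the sets and 10 UMIs in both, 8 were at least 2-fold higher in the stefin-high cells (0.491%), none was at 0.5-fold or less, and 6 of the 8 belonged to the stefin cluster. The other 2 were Xcl1 (21.0 and 69.9 CPM) and Crip1 (25.8 and 54.6 CPM), both low. Since the cells were divided by their stefin counts, the stefin genes themselves are no finding here. Lcn2 was at 21034 and 18469 CPM in stefin-low and stefin-high cells, Cxcl2 at 4007 and 4615 CPM, Wfdc17 at 434 and 501 CPM and Mki67 at 75.8 and 78.0 CPM. Cxcl2, Wfdc17 and Mki67, which were past 2-fold between the libraries, thus had similar levels in both sets of cells. Of other genes past 2-fold between the libraries, Retnlg was at 8668 and 11676 CPM and Asprv1 at 554 and 1016 CPM.

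**Figure D5:**
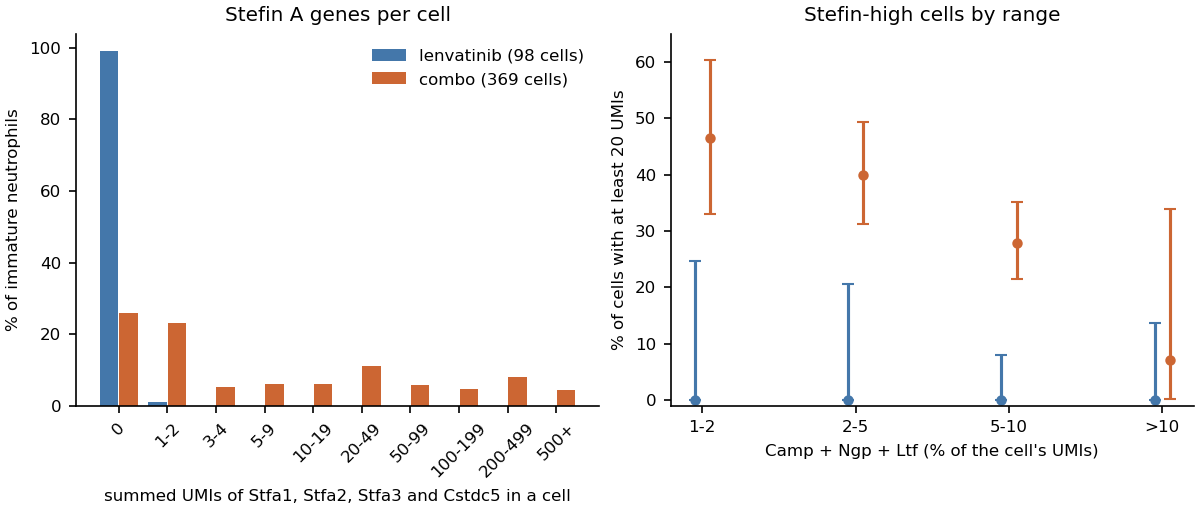
Left, percentage of immature neutrophils by their summed UMIs of Stfa1, Stfa2, Stfa3 and Cstdc5 in each library; right, percentage of cells with at least 20 such UMIs by range of Camp, Ngp and Ltf, with exact 95% intervals. Under combo the cells spread from 0 to over 500 UMIs and under lenvatinib no cell had more than 1.

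Against the other neutrophils of the same library, the immature cells differed in many genes, given here without a test because their transcripts chose them. Of 2026 genes described in both libraries, 122 (6.02%) were at least 2-fold higher and 509 (25.1%) at 0.5-fold or less in both, with median ratios of 0.699 and 0.713. The 5 genes of the choice made up 393963 and 421033 CPM in the immature cells and 95283 and 205456 CPM in the other neutrophils. They are part of the totals, so the choice itself scaled down the CPM of all other genes in the immature cells. How much of the counts follows from this was not tested. Beyond the genes of the choice, the highest by the weaker library were Cebpe (12.8 times in each library), Chil3 (203 and 12.6 times), Serpinb1a (15.3 and 11.4 times), which encodes an inhibitor of neutrophil serine proteases, and Zmpste24 (11.3 and 11.5 times), a protease that processes lamin A. The histone gene Hist1h2ap and Stmn1, a regulator of microtubules in dividing cells, were 13.0 and 10.9 times and 6.31 and 7.03 times as high. Lta4h, which makes leukotriene B4, was 6.60 and 13.7 times and Cybb 16.2 and 8.99 times as high. All 4 mitosis genes described in both libraries were at least 2-fold higher. The lowest were the receptor gene Clec4n (0.0226 and 0.0319 times), Ptgs2 (0.0346 and 0.0354 times), Il1b (0.0180 and 0.0406 times), Ccl6, Fgl2, Ccrl2, Ifitm1, Nlrp3, Ppp1r15a and Icam1, genes of activated neutrophils. Of 19 surface molecules of mature neutrophils 10 were at 0.5-fold or less and 1 was at least 2-fold higher in both libraries. The late factors Cebpb (0.111 and 0.284 times) and Junb (0.118 and 0.234 times) were also lower. When only the other neutrophils without Ptgs2 were used, 63 genes were at least 2-fold higher and 366 at 0.5-fold or less. That class held 465638 and 2792616 UMIs, against 1655709 and 6017011 in all other neutrophils. Fewer genes can reach 10 UMIs in it, so these counts are not out of the same 2026 genes.

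Of 1753 genes described in both classes, 17 were at least 2-fold higher under combo in both, 94 were at 0.5-fold or less in both, and 0 were called in opposite directions. Over all 2095 genes described in the immature cells, 2.43% were called higher and 12.5% lower. How much overlap these shares would give by themselves was not tested. Asprv1, Ifitm1 and Retnlg were also found in more of the thinned other neutrophils under combo, 61.2%, 91.7% and 83.0% against 27.6%, 75.4% and 50.1%. Some genes of immature cells that were alike in the libraries were not so in the other neutrophils, and the difference between the classes was not tested. Chil3 had a ratio of combo to lenvatinib of 0.813 in the immature and 13.1 in the other neutrophils, which were at 27.8 and 363 CPM. Ly6g had ratios of 1.05 and 5.16. Mpo and Elane were at 335 and 445 CPM in the other neutrophils under lenvatinib and at 3.32 and 1.66 CPM under combo, so the levels of other neutrophils under lenvatinib include cells with these transcripts.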

How the data were processed

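Live CD45+ cells of liver tumors from mice given lenvatinib or lenvatinib with palbociclib were profiled by 10x 3′ v3 single-cell RNA sequencing, 1 library per condition. The deposited values were raw UMI counts for each gene in each barcode, which the authors made with Cell Ranger against mm10; the submitters' processing notes name version 5.0.1 and the file header 6.0.1. No value in the files was normalized, and the tables held 32285 features with 40 symbols on several rows, which were kept apart. The sources used here do not name a step that removes doublets or free RNA.

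The members and gene lists were chosen with earlier results of these data known. Barcodes with at most 6000 genes and 25% mitochondrial UMIs were kept and gated as the report states. UMIs were summed per library and class and divided by the class total (CPM). With 1 library per condition there was no test: genes were described at 50 CPM or more in 1 library and 10 UMIs or more in each, and called at a ratio of 2 or 0.5. Shares carry exact Clopper-Pearson and sums exact Poisson 95% intervals, which cover counting error only, and a count of 0 was set against a floor of 3 UMIs. The interval of a ratio of shares divides the lower bound of one share by the upper bound of the other and the reverse. Cells were thinned to 2000 UMIs with a fixed seed before cells with a UMI were counted. Named genes were those of the choice, up to 4 a list, and the 10 highest and 10 lowest ratios between libraries and against other neutrophils among genes at 100 CPM or more, without mitochondrial, ribosomal protein, immunoglobulin and hemoglobin genes; others were chosen after their values were seen, among them Xcl1, Crip1, Cdk4, Cdk6 and members of a list past the fourth. Doublets were called with Scrublet (scanpy 1.11.5, 6% expected) and kept. Promoters and motifs were read from RefSeq tables of GRCm38.p6 and gene positions from GENCODE. Scripts used Python 3.11.15, numpy 2.4.6, scipy 1.17.1, pandas 2.3.3 and matplotlib 3.10.9 and were tested on simulated data. Alternatives covered the limits on mitochondrial UMIs, depth, doublets, granule, S100 and lymphocyte genes, the CPM total and minimum, thinning, the mitosis limit and the gate for other neutrophils.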

Additional observations from a re-analysis of the deposited data

Results flagged for a closer look

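The limits on Cd3 and Cd79a left out 20 lenvatinib and 109 combo cells that met both granule limits, and these cells enter no value of the immature neutrophils. They made up 16.9% and 22.8% of the cells that met the other limits. Their granule genes were at a median of 3.65% and 4.70% of UMIs. T cell markers summed to 831 and 493 CPM in them and B cell markers to 287 and 6143 CPM. Scrublet called 0 and 15 of them doublets. In 5 and 44 the excess was 2 or 3 Cd3 UMIs without Cd79a, and in 1 and 16 it was 1 Cd79a UMI with at most 1 Cd3 UMI. In 14 and 45 it was over 3 Cd3 or over 1 Cd79a UMIs. The remaining combo cells had 2 or 3 Cd3 UMIs and 1 Cd79a UMI. Stfa1, Stfa2, Stfa3 and Cstdc5 together reached 200 CPM in the lenvatinib cells, with 58 of 60 UMIs in 1 cell. They reached 3115 CPM in the combo cells, where 83 of 109 cells had at least 1 such UMI. How many of the cells left out are immature neutrophils with free RNA and how many are doublets was not tested.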

How the results depend on the processing

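The immature neutrophils as a share of all kept cells kept a ratio of 4.31 to 5.55 under the alternatives run. Of gated neutrophils, their ratio of 1.63 was 1.16 with S100a8 and S100a9 at 5% or more in both classes and 1.18 with other neutrophils taken by that limit alone. The ratio of cells with mitosis genes ran from 0.258 to 0.542, the last without thinning (interval to 1.03), and was 0.475 in the range of 5 to 10% granule transcripts (interval to 1.37). The counts of 51 higher and 261 lower genes depended on the total and the minimum: they were 84 and 423 with the 5 genes of the choice left out of the total, 29 and 36 at 200 CPM or more, and 83 and 1377 with no minimum CPM. Against Ptgs2-negative neutrophils alone, 63 genes were higher in place of 122, though not out of the same genes, since that class held fewer UMIs. For 28 described named genes past 2-fold, 320 of 336 values over the 12 settings that can move a ratio stayed past it, 16 did not and none changed direction. No thinning, limits on Cd3 and Cd79a as shares of UMIs (ratio 5.55), no such limits (4.95), the range of 5 to 10% (34 and 240 genes) and means of single cells (53 and 379 genes) were added after seeing the data. No paired analysis was possible because each condition had 1 library, for which reason no library could be left out. Animals, batch and treatment cannot be told apart.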

Other observations

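Of 4 described genes of 10 in a list tied to suppressive neutrophils, Wfdc17 and Arg2, a mitochondrial arginase (23.7 and 71.2 CPM, ratio 2.998), were at least 2-fold higher under combo. Ptgs2 was at 0.5-fold or less, and the list median was 1.88 beside 0.801 over all genes. Over all described genes, 2.43% were at least 2-fold higher and 12.5% at 0.5-fold or less. Arg1, the arginase of suppressive myeloid cells, had 0 and 1 UMI in all immature neutrophils. The 15 described genes of glycolysis and hypoxia had a median ratio of 1.04 and none was past 2-fold. Of 3 described survival genes, Mcl1, which keeps neutrophils alive, was at 437 and 832 CPM (ratio 1.91) and Bak1, which promotes cell death, at 56.8 and 25.6 CPM (ratio 0.451). Of 4 described surface molecules of early precursors, Cxcr4, which holds precursors in the marrow, was at 135 and 39.9 CPM (ratio 0.295) and was the 1 gene at 0.5-fold or less. Cxcr4 was not particular to immature cells. After thinning it was found in 24.7% and 9.09% of them and in 61.1% and 30.3% of the other neutrophils, lower under combo in both. In T cells it was found in 28.6% and 26.2%.

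Markers of other cells were low in the immature neutrophils. Those of monocytes and macrophages summed to 27.9 and 40.8 CPM, of dendritic cells to 74.3 and 96.9 CPM, of B cells to 217 and 281 CPM, of basophils, mast cells and eosinophils to 14.5 and 4.77 CPM, of hepatocytes to 1.03 and 1.91 CPM and of red cells and platelets to 4.13 and 6.67 CPM.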
